A study of Homo sapiens with 12 samples.

Results

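The genes described here are 10 markers of epithelial and mesenchymal state, taken by symbol from the 57815 genes with values in each RNA-seq library. The 5 epithelial genes are CDH1, EPCAM, ESRP1, KRT8 and KRT18, and the 5 mesenchymal genes are CDH2, VIM, FN1, ZEB1 and SNAI2. All 10 were matched by their Ensembl identifiers. The list is one of textbook markers and sets no threshold on a measured value, but it was drawn up with earlier results of these data known. Expression was measured in 12 libraries from A549, H2023 and H460, human non-small cell lung cancer lines that the labels give as carrying mutant KEAP1. Of these, H460 is labelled as a large cell carcinoma of the lung and the others as lung adenocarcinoma. Each line received control siRNA or siRNA against NRF2, with RNA collected 48 h later, which gave 6 groups of 2 libraries. The control siRNA groups therefore carry the KEAP1 mutation as well, so every comparison was made on a KEAP1-mutant background. In the NRF2 siRNA groups, library 0 was made with siRNA #28 and library 1 with siRNA #30, and the spread within these groups includes any difference between the siRNAs. A549 cells were kept in high-glucose medium and their RNA was depleted of ribosomal RNA, whereas H2023 and H460 cells were kept in low-glucose medium and polyA RNA was selected. Levels in A549 therefore stand here beside the other lines without a test, because line, medium and protocol cannot be told apart. Each line is a single established line. The study's methods describe the control siRNA libraries as biological duplicates and count the siRNAs against NRF2 as duplicates of each other, so p-values measure the spread between cultures of 1 line.

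Epithelial cells adhere to one another through E-cadherin, are filled with keratin filaments and splice many transcripts in an epithelial pattern, whereas mesenchymal cells carry N-cadherin and vimentin filaments and lay down fibronectin. In epithelial to mesenchymal transition, transcription factors of the ZEB and SNAIL families repress the E-cadherin gene, and TGF-beta is a well-known inducer. Carcinoma lines often hold mixtures of both programs. NRF2, encoded by NFE2L2, is a transcription factor of the antioxidant response, and KEAP1 is the adaptor through which it is normally degraded.

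Values are FPKM, which scale reads to transcript length and library size and so allow levels to be compared between genes. A gene was tested where it reached 1 FPKM in at least 2 of the libraries compared. Fold changes are on the log2(FPKM + 1) scale, which understates changes of genes with low values, and a gene was called where the limma p adjusted by Benjamini-Hochberg over all genes tested was under 0.05.

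Depth per library is unknown, because read counts were not used here. The authors' mean normalised counts summed to 33017216 in A549, 14228216 in H2023 and 14029849 in H460. Between 12732 and 13909 genes reached 1 FPKM per library. NFE2L2 checked the knockdown, with control siRNA levels of 38.2 and 30.9 FPKM in A549, 119.97 and 118 in H2023, and 144 and 99.5 in H460. Its NRF2 siRNA levels were 5.31 and 7.84 FPKM in A549, 7.74 and 6.80 in H2023, and 6.54 and 12.2 in H460. NFE2L2 and its targets NQO1 and GCLM fell in all 3 lines by the limma test. The defining markers of fibroblasts, endothelium, immune cells and squamous cells were mostly near 0: 3 of 5, 0 of 3, 1 of 4 and 2 of 4 genes of these lists reached 1 FPKM in any library. Their summed levels per library ranged from 0.994 to 6.10 FPKM for fibroblast genes, 0.523 to 19.5 for immune genes, 0.0107 to 2.07 for squamous genes and 0.00036 to 0.213 for endothelial genes. The immune sum was highest under NRF2 siRNA in H460 (17.6 and 19.5, against 1.79 and 5.51 under control siRNA). CD14 made up 17.6 and 19.4 FPKM of it under NRF2 siRNA, and PTPRC, which defines leukocytes, was at most 0.470 FPKM in any library. Markers of the lung epithelial lineage summed to at most 1.42 FPKM in any library, so the labelled lung origin was not visible in this list. Neuroendocrine genes summed to 36.4 to 57.7 FPKM in H2023, 19.0 to 24.8 in H460 and 3.69 to 7.52 in A549. Mitochondrial transcripts made up 8.56% and 13.1% of all FPKM in the H460 control libraries and 20.8% and 26.0% in the H460 NRF2 siRNA libraries. The shares in H2023 were 11.97% and 18.1% with control siRNA and 17.4% and 22.8% with NRF2 siRNA. Without them the median of the log2 fold changes over the genes tested was 0.19 in place of -0.01 in H460 and 0.0998 in place of 0.02 in H2023.

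The annotation of genome build GRCh37 places CDH1, encoding E-cadherin, on the plus strand of chr16:68771195-68869440, and EPCAM, a cell surface adhesion molecule of epithelia, on the plus strand of chr2:47572297-47614740. ESRP1, a splicing regulator of epithelial cells, lies on the plus strand of chr8:95653302-95719694. KRT8 and KRT18, which encode the paired keratins of simple epithelia, lie on opposite strands of chromosome 12, at chr12:53290971-53343738 (minus) and chr12:53342655-53346690 (plus). Their gene bounds overlap by 1084 bases, and although the libraries were strand-specific, whether strand was used when FPKM were estimated is not given in the sources used here. The annotation also holds 51 genes named as pseudogenes of KRT8 and 67 of KRT18. These summed to at most 1.23% of KRT8 FPKM and 0.782% of KRT18 FPKM in any library, but reads shared with them leave both keratin values uncertain. CDH2, encoding N-cadherin, lies on the minus strand of chr18:25512843-25757910, VIM, encoding vimentin, on the plus strand of chr10:17270240-17279592, and FN1, encoding fibronectin, on the minus strand of chr2:216225163-216300796. The repressor genes ZEB1 and SNAI2 lie at chr10:31607424-31818742 (plus) and chr8:49830157-49834299 (minus). Exons and untranslated regions were not looked at separately within these whole-gene positions.

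The first question was how far H2023 and H460 differ in epithelial and mesenchymal genes before NRF2 was knocked down. Under control siRNA, H2023 held more of 4 of the 5 epithelial genes, and the difference was 8.37-fold for CDH1, 5.86-fold for EPCAM, 2.64-fold for KRT18 and 2.27-fold for KRT8. The mesenchymal genes divided: FN1, SNAI2 and VIM were lower in H2023 by 10.7-fold, 4.01-fold and 2.76-fold, CDH2 was 4.94-fold higher, and ZEB1 did not pass the test. These folds are on the log2(FPKM + 1) scale. With 0.1 in place of 1 FPKM added they were 25.7-fold for CDH1, 13.6-fold for EPCAM, 8.19-fold for SNAI2 and 7.89-fold for CDH2, with the same calls. Of the 9 members tested, 5 were called higher in H2023 and 3 lower, where 24.2% and 24.6% of the 14039 genes tested were called in these directions. The median log2 fold change was 1.98 over the 4 epithelial members tested, -1.46 over the 5 mesenchymal members and -0.03 over all genes tested. CDH1 and SNAI2 met the filter on low values through 1 line alone, so these counts and medians describe the members that could be tested. In bulk RNA, fewer cells of a type and less RNA per cell cannot be told apart.

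Promoter windows from RefSeq on build GRCh38.p14 were at hand for KRT8, VIM, FN1, CDH2 and ZEB1, and had no entry for CDH1, EPCAM, ESRP1, KRT18 and SNAI2. The 150 bases before the start are shown for the 3 members with a single window, since KRT8 was higher and VIM and FN1 lower in H2023 than in H460 under control siRNA. Capitals mark GGGCGG or its reverse complement, the core of the GC box that SP1 binds, and TATAAA on either strand was marked in the same way but was not found.
KRT8, chr12:52926470-52926619, minus strand: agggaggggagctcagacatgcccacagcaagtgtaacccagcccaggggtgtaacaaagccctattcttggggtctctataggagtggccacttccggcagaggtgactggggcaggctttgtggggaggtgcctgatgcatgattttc
VIM, chr10:17228091-17228240, plus strand: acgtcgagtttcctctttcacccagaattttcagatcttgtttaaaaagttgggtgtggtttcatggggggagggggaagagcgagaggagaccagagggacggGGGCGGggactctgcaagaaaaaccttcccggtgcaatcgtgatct
FN1, chr2:215436069-215436218, minus strand: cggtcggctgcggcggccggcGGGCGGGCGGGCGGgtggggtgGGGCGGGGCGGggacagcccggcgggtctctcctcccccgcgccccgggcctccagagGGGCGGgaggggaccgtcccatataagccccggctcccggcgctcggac
In the 250 bases before the start, GGGCGG on either strand occurred 6 times in FN1, overlaps included, once in VIM and not in KRT8. It was found in 42.6% of the 35116 windows of this length, and TATAAA in 10.7%. CACCTG, the E-box to which ZEB and SNAIL proteins bind, was in 17.5% of windows on either strand, but in none of the KRT8, VIM, FN1 and CDH2 windows and in 2 of the 7 windows of ZEB1. TGACNNNGC, the core of the antioxidant response element, was in 10.9% of windows and in no window of these 5 genes. These matches describe letters in the windows only. The starts of the windows were not matched to the gene bounds on GRCh37 or to the starts used in these cells. The KRT8 letters therefore describe this window and not every possible start of KRT8.

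**Figure D1:**
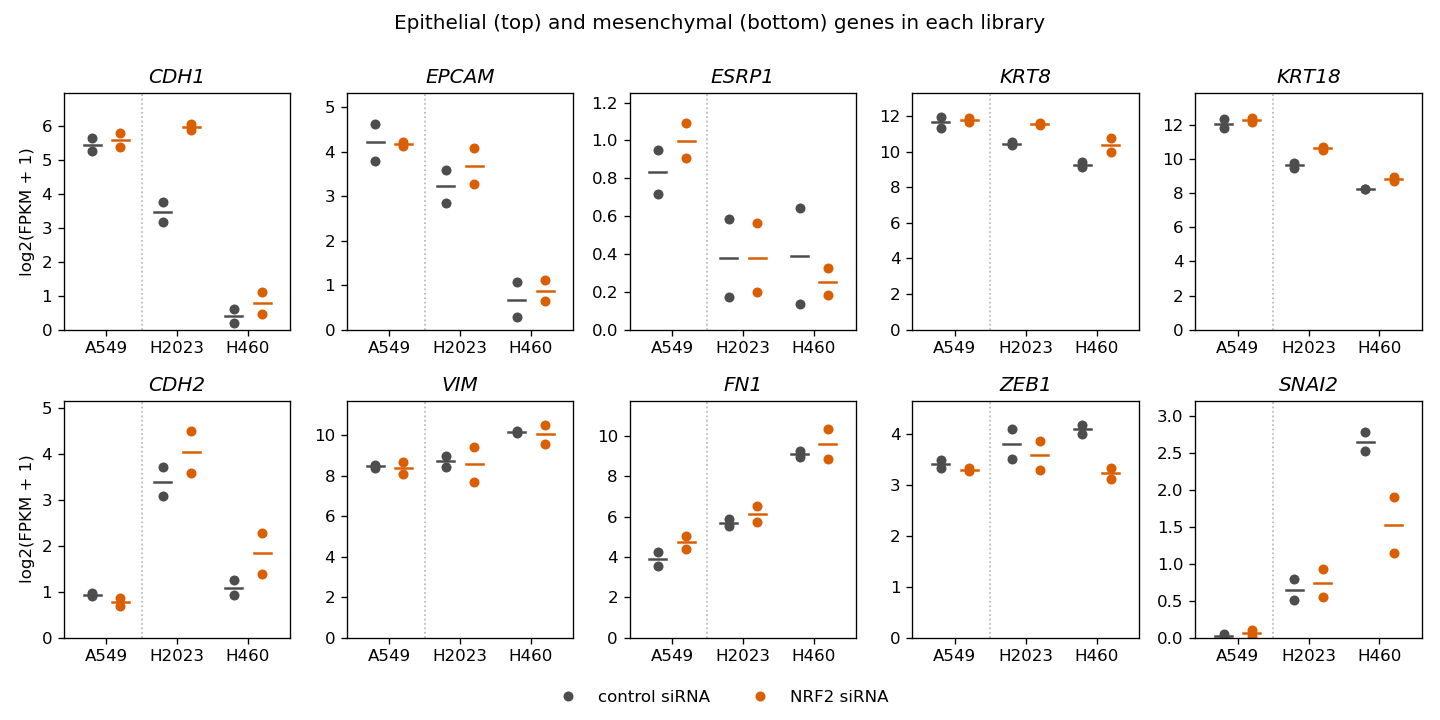
Levels of the 5 epithelial genes (top) and 5 mesenchymal genes (bottom) as log2(FPKM + 1), with 1 point per library, control siRNA in grey, NRF2 siRNA in orange and a bar at each group mean. A dotted line sets apart A549, which was made by another protocol; CDH1 in H2023 rises from 12.6 and 8.05 FPKM with control siRNA to 65.0 and 58.3 with NRF2 siRNA.

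CDH1 read 12.6 and 8.05 FPKM in the H2023 control libraries and 0.149 and 0.525 in the H460 control libraries. The groups were far apart, with both H460 values under 1 FPKM, and the log2 fold change was 3.07 ± 0.28 (SE, limma adjusted p = 0.000646). EPCAM showed the same order at 11.1 and 6.23 FPKM in H2023 and 1.09 and 0.222 in H460, a log2 difference of 2.55 ± 0.36 (limma adjusted p = 0.00285). ESRP1 was too low to be tested, at 0.502 and 0.128 FPKM in H2023 and 0.10 and 0.563 in H460. These ESRP1 values overlapped between the lines.

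The simple keratins were among the abundant transcripts of both lines. KRT8 read 1474 and 1303 FPKM in H2023 and 553 and 673 in H460 (log2 fold change 1.18 ± 0.19, limma adjusted p = 0.00403). KRT18 read 878 and 712 FPKM in H2023 and 299.6 and 298 in H460 (1.40 ± 0.17, limma adjusted p = 0.00154). Neither keratin overlapped between the lines, and both stayed at 298 FPKM or more in H460 while CDH1 and EPCAM there were near or under 1. The calls of EPCAM and KRT8 were lost without H2023 control library 0 and without H2023 control library 1. They were also lost with all libraries and no filter on low values (limma adjusted p = 0.0614 and 0.0505), where the fold changes were unchanged.

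Among the mesenchymal genes, FN1 differed most, with 57.9 and 44.6 FPKM in H2023 and 501 and 615 in H460 (log2 fold change -3.42 ± 0.18, limma adjusted p = 0.000134). VIM read 347 and 495 FPKM in H2023 against 1095 and 1198 in H460 (-1.46 ± 0.21, limma adjusted p = 0.00313). Vimentin transcript was thus abundant in both lines and higher in both H460 libraries than in either H2023 library. Without H2023 control library 0 the call of VIM was lost, as were calls of other members and many calls over all genes. With all libraries and no filter on low values VIM was not called either (limma adjusted p = 0.0534).

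CDH2 went the other way, at 7.48 and 12.03 FPKM in H2023 and 0.895 and 1.39 in H460 (2.31 ± 0.27, limma adjusted p = 0.00159). CDH1 and CDH2 were therefore both higher in H2023. Another cadherin gene outside the members, CDH11, was higher in H460. It read 751 and 747 FPKM in the H460 control libraries against 0.163 and 0.290 in those of H2023. The log2 ratio of CDH1 to CDH2, with nothing added, was 0.75 and -0.58 in the H2023 control libraries and -2.59 and -1.40 in the H460 control libraries, where CDH1 was under 1 FPKM.

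The repressor genes among the members differed in their pattern. SNAI2 read 0.724 and 0.424 FPKM in H2023 and 4.76 and 5.85 in H460 (-2.004 ± 0.21, limma adjusted p = 0.00105). ZEB1 read 10.3 and 16.2 FPKM in H2023 and 17.1 and 15.0 in H460, and these groups overlapped. Its difference was -0.29 on the log2 scale with a 95% interval of -0.87 to 0.29 (limma adjusted p = 0.355), an interval that allows ZEB1 to be lower or somewhat higher in H2023.

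The balance of filament genes set the lines apart in each library. The linear ratio of VIM to KRT8 was 0.236 and 0.380 in H2023 under control siRNA and 1.98 and 1.78 in H460. Vimentin transcript exceeded keratin 8 transcript in the H460 control libraries and was below it in the H2023 control libraries. In A549 this ratio was 0.0938 and 0.130.

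Under NRF2 siRNA, 5 of the 9 members tested differed between the lines, 4 higher and 1 lower in H2023, where 10.7% and 8.66% of 14454 genes were called in these directions. CDH1 was 36.3-fold higher in H2023 (log2 fold change 5.18 ± 0.33, limma adjusted p = 0.00138). EPCAM was 6.98-fold (limma adjusted p = 0.00874), CDH2 4.61-fold (limma adjusted p = 0.0290) and KRT18 3.48-fold higher (limma adjusted p = 0.00882). FN1 was 11.1-fold lower in H2023 (-3.48 ± 0.55, limma adjusted p = 0.0130). With 0.1 FPKM added the CDH1 and EPCAM differences were 79.9-fold and 13.01-fold. The comparisons under control siRNA and under NRF2 siRNA use different libraries.

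**Figure D2:**
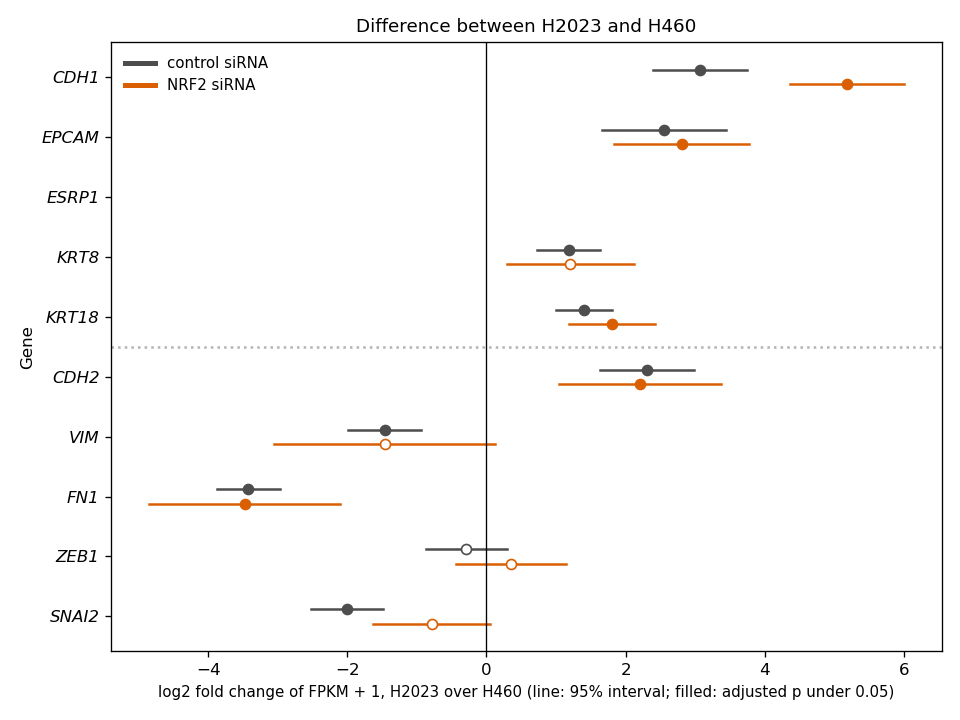
Log2 fold change of FPKM + 1 in H2023 over H460 for each gene, under control siRNA (grey) and NRF2 siRNA (orange), with 95% intervals; filled points passed the limma test. CDH1, EPCAM, KRT18 and CDH2 lie to the right under both siRNAs and FN1 to the left, and the CDH1 difference is 3.07 with control siRNA and 5.18 with NRF2 siRNA.

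ESRP1, at 0.477 and 0.149 FPKM in H2023 and 0.134 and 0.255 in H460 under NRF2 siRNA, overlapped between the lines and was not tested. The other members tested did not pass. KRT8 differed by 1.20 (95% interval 0.29 to 2.12, limma adjusted p = 0.0756) and VIM by -1.46 (-3.05 to 0.12, limma adjusted p = 0.17). SNAI2 differed by -0.79 (-1.63 to 0.05, limma adjusted p = 0.165) and ZEB1 by 0.35 (-0.44 to 1.14, limma adjusted p = 0.482). With the siRNA as a block, which pairs the libraries of the lines by siRNA #28 and #30, KRT8 and VIM passed at limma adjusted p = 0.0392 and 0.00689, and 7 members and 4769 genes were called in place of 5 and 2799. Leaving out 1 library lost calls among the members and also over all genes. CDH1 alone kept its call without H2023 library 0 and without H2023 library 1.

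The second question was whether the members changed on NRF2 knockdown within each line. CDH1 rose in H2023, by 5.64-fold on the log2(FPKM + 1) scale, and it was the single member that passed the test in any of the 3 lines. In A549 none of 7 members tested passed, where 0.122% of 13898 genes were called higher and 0.554% lower. In H2023 1 of 8 members was called higher and none lower, where 0.327% of 14059 genes were called higher and 0.583% lower. In H460 none of 8 members passed, where 7.12% of 13446 genes were called higher and 6.86% lower. At an unadjusted limma p under 0.05, the line by line results held FN1 in A549, CDH1, KRT8 and KRT18 in H2023, and KRT8, KRT18, ZEB1 and SNAI2 in H460. Such a p was reached by 1844 of 13898 genes in A549, 2378 of 14059 in H2023 and 4538 of 13446 in H460.

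CDH1 in H2023 went from 12.6 and 8.05 FPKM with control siRNA to 65.0 with siRNA #28 and 58.3 with siRNA #30. Both NRF2 siRNA libraries were far above both control libraries, and the log2 fold change was 2.497 ± 0.24 (SE, 95% interval 1.89 to 3.11, limma adjusted p = 0.0280). The adjusted p was 0.115 without control library 0 and 0.148 without control library 1, with log2 fold changes of 2.79 and 2.20. It was 0.2 when no filter on low values was applied, and 0.0195 with mitochondrial transcripts left out. In A549 CDH1 read 48.4 and 36.9 FPKM with control siRNA and 40.9 and 54.8 with NRF2 siRNA, and the groups overlapped (0.16, 95% interval -0.36 to 0.68, limma adjusted p = 0.794). In H460 it read 0.149 and 0.525 against 0.370 and 1.17 FPKM, overlapping and too low to be tested.

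**Figure D3:**
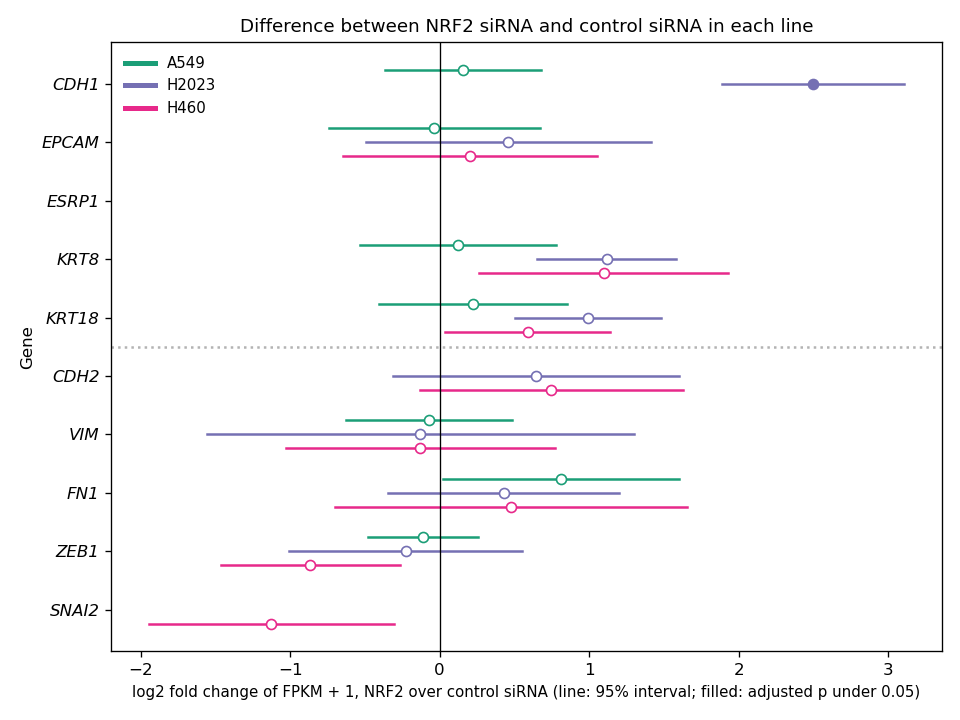
Log2 fold change of FPKM + 1 with NRF2 siRNA over control siRNA for each gene in A549, H2023 and H460, with 95% intervals; filled points passed the limma test, and genes without a point were too low to be tested. The CDH1 point of H2023 at 2.497 is the single filled one.

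As ratios of mean FPKM, CDH1 with NRF2 siRNA stood at 5.98 times its control level in H2023, 1.12 times in A549 and 2.28 times in H460. The H460 ratio rests on values near or under 1 FPKM, and the difference between the responses in H2023 and H460 was not tested. The response in H2023 was compared with that in A549 in a fit of 8 libraries added after the values had been seen. It exceeded that in A549 by 2.34 ± 0.35 on the log2 scale (95% interval 1.53 to 3.15), which passed at an unadjusted limma p under 0.05 and not after adjustment over 15678 genes, of which 0.236% were called (limma adjusted p = 0.0715). Over the fits that left out 1 library the adjusted p ranged from 0.103 to 0.361. Each response was measured within 1 protocol, but in their difference line, medium and protocol cannot be told apart. In the planned test of the difference between H460 and H2023, which asked for expression in both lines, none of 7 members passed, where 0% of 12408 genes were called with a larger effect in H460 and 0.0161% with a smaller one. A total of 2110 genes had an unadjusted limma p under 0.05 in that test, and none of these 7 members was among them. In the direction of H460 minus H2023, the effects differed by -0.25 for EPCAM (95% interval -1.57 to 1.07), 0.10 for CDH2 (-1.23 to 1.44), -0.001 for VIM (-1.73 to 1.73), 0.05 for FN1 (-1.45 to 1.56) and -0.64 for ZEB1 (-1.56 to 0.28). CDH1, ESRP1 and SNAI2 were too low in at least 1 of the lines for this test.

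The keratins lay above their controls in both polyA lines without passing the adjusted test. KRT8 read 3101 and 2919 FPKM with NRF2 siRNA against 1474 and 1303 with control siRNA in H2023 (1.12 ± 0.19, limma adjusted p = 0.0819), and 990 and 1723 against 553 and 673 in H460 (1.097 ± 0.35, limma adjusted p = 0.0808). KRT18 read 1674 and 1475 against 878 and 712 in H2023 (0.99 ± 0.19, limma adjusted p = 0.109), and 483 and 419 against 299.6 and 298 in H460 (0.59 ± 0.23, limma adjusted p = 0.129). No group overlapped its control in these lines, and the 95% intervals lay above 0 in each, from 0.65 to 1.58 for KRT8 and 0.50 to 1.48 for KRT18 in H2023, and from 0.26 to 1.93 and 0.04 to 1.14 in H460. In A549 the keratins were at 3939 and 2563 FPKM for KRT8 and 5089 and 3562 for KRT18 with control siRNA, and at 3225 and 3711 and at 4566 and 5394 with NRF2 siRNA. These A549 groups overlapped, and the differences were 0.12 (-0.53 to 0.78) and 0.22 (-0.41 to 0.85). The effect on KRT8 differed between H460 and H2023 by -0.02 (-0.95 to 0.91) and that on KRT18 by -0.40 (-1.05 to 0.24).

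EPCAM and ESRP1 showed no such separation. EPCAM read 11.1 and 6.23 FPKM with control siRNA and 15.9 and 8.76 with NRF2 siRNA in H2023, and 23.7 and 12.9 against 17.7 and 16.5 in A549. Groups overlapped in both lines, with log2 differences of 0.46 (95% interval -0.50 to 1.41) and -0.04 (-0.74 to 0.67). In H460 EPCAM went from 1.09 and 0.222 to 0.554 and 1.19 FPKM (0.21, -0.64 to 1.06). ESRP1 stayed between 0.10 and 1.13 FPKM in all 12 libraries and was tested in no line.

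The repressor genes among the members, SNAI2 and ZEB1, were lower with both NRF2 siRNAs in H460, again without passing the adjusted test. SNAI2 read 4.76 and 5.85 FPKM with control siRNA and 1.22 with siRNA #28 and 2.75 with siRNA #30 (log2 fold change -1.12 ± 0.34, 95% interval -1.94 to -0.30, limma adjusted p = 0.0733). ZEB1 read 17.1 and 15.0 FPKM with control siRNA against 9.07 and 7.67 with NRF2 siRNA (-0.86 ± 0.25, -1.46 to -0.27, limma adjusted p = 0.0654). In H460 neither gene overlapped between the groups. In H2023 ZEB1 read 10.3 and 16.2 against 8.78 and 13.5 FPKM, and the groups overlapped (-0.23, -1.004 to 0.55). SNAI2 in H2023, at 0.724 and 0.424 against 0.465 and 0.906 FPKM, was too low to be tested. In A549 ZEB1 lay between 8.59 and 10.2 FPKM in all 4 libraries (-0.11, -0.48 to 0.26), and SNAI2 was at most 0.0752 FPKM. SNAI1, a gene of the SNAIL family outside the members, was lower in both NRF2 siRNA libraries than in both controls of each line. With control and NRF2 siRNA it read 9.88 and 16.9 against 4.79 and 7.41 FPKM in H2023. The values were 2.44 and 3.18 against 0.916 and 1.72 in A549, and 6.49 and 7.35 against 3.26 and 4.78 in H460. SNAI1 was called in no line and named after its values were seen. ZEB2 in H460, at 23.3 and 19.1 against 14.1 and 30.4 FPKM, overlapped.

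N-cadherin, vimentin and fibronectin transcripts varied between the libraries of a group. CDH2 read 0.895 and 1.39 FPKM with control siRNA and 1.63 and 3.85 with NRF2 siRNA in H460 (0.75, 95% interval -0.13 to 1.63, limma adjusted p = 0.206), and 7.48 and 12.03 against 10.96 and 21.6 in H2023 (0.64, -0.31 to 1.60). Library 1, made with siRNA #30, was the higher of the pair in both lines, and so was control library 1, which received neither NRF2 siRNA. In A549 CDH2 was under 1 FPKM in every library, at 0.957 and 0.861 against 0.817 and 0.607, and was not tested.

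VIM with siRNA #28 lay below both control libraries and with siRNA #30 above both, in each line. With control siRNA it read 370 and 333 FPKM in A549, 347 and 495 in H2023, and 1095 and 1198 in H460. With siRNA #28 and siRNA #30 it read 273 and 409 FPKM in A549, 208 and 693 in H2023, and 756 and 1450 in H460. Against the mean of its controls, the log2 level of VIM differed under siRNA #28 by -0.36 in A549, by -0.99 in H2023 and by -0.60 in H460, and under siRNA #30 by 0.22, 0.74 and 0.34 in the same order. Averaged over both siRNAs, the differences were -0.07 (-0.63 to 0.49), -0.13 (-1.56 to 1.30) and -0.13 (-1.03 to 0.77), and with 1 library per siRNA and line the siRNA and the library cannot be told apart.

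FN1 read 18.0 and 10.7 FPKM with control siRNA and 32.0 and 19.9 with NRF2 siRNA in A549, where the groups did not overlap (0.81 ± 0.32, 95% interval 0.03 to 1.60, limma adjusted p = 0.364). It read 57.9 and 44.6 against 91.4 and 51.6 FPKM in H2023 (0.43, -0.35 to 1.20) and 501 and 615 against 462 and 1300 FPKM in H460 (0.48, -0.70 to 1.66). The groups overlapped in H2023 and H460, where the higher NRF2 siRNA library was that of siRNA #28 and of siRNA #30, respectively.

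Within libraries, the ratio of the cadherins was higher in both NRF2 siRNA libraries of H2023 than in both controls. The log2 ratio of CDH1 to CDH2 was 0.75 and -0.58 in the H2023 control libraries and 2.57 and 1.43 in the NRF2 siRNA libraries. In H460 it was -2.59 and -1.40 against -2.13 and -1.72, and in A549 5.66 and 5.42 against 5.65 and 6.496, and the groups overlapped in both. These H460 and A549 ratios rest on a cadherin near or under 1 FPKM. The linear ratio of VIM to KRT8 was 1.98 and 1.78 in the H460 control libraries and 0.763 and 0.841 with NRF2 siRNA, so that keratin 8 transcript exceeded vimentin transcript there after knockdown. In H2023 it was 0.236 and 0.380 against 0.0669 and 0.237. These ratios are given as descriptions, without a test.

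Other genes of the epithelial program were compared in the same fits. Of 32 such genes, 20 could be tested between H2023 and H460 under control siRNA, and 13 were higher and 4 lower in H2023, with a median log2 fold change of 1.67 against -0.03 over all genes tested. Over all genes 24.2% were called higher and 24.6% lower. Of the 13 higher genes, 8 (CRB3, DSP, ELF3, ESRP2, MAL2, PPL, SPINT1 and TJP3) were under 1 FPKM in both H460 libraries and met the filter through H2023 alone, as CLDN4 among the lower ones did through H460. Genes low in both lines were left out, so these counts and the median describe the genes that could be tested. With no filter the median over all 32 genes was 0.52, with 10 called higher and 0 lower. The most strongly higher were ELF3, an epithelial transcription factor (6.36), KRT7, a simple keratin (5.97), MAL2, an apical transport protein (4.96), and LSR, a tricellular junction protein (4.09). Lower in H2023 were the tight junction gene CLDN4 (-2.48), KRT19 (-1.30), and the desmosome-associated genes EVPL (-0.60) and PKP3 (-0.52). The count of lower calls was 2 under median-of-ratios scaling or with mitochondrial transcripts left out, and 0 without H2023 control library 0 or without library 1. The higher calls were 10 to 12 when 1 library was left out. Over all genes 8.97% were called higher and 5.14% lower without H2023 control library 0, 9.25% and 5.21% without library 1, and 8.38% and 6.60% with no filter. With NRF2 siRNA 11 were higher and 2 lower of 22 tested, led by KRT7 (5.65), ELF3 (5.54), LSR (4.97) and MAL2 (4.52) among the higher and with CLDN4 (-1.83) and JUP (-1.57) lower, where 10.7% and 8.66% of all genes were called. Without H2023 library 0, as without library 1, 4 were called higher and 0 lower. The counts were 7 and 1 without H460 library 0, 6 and 0 without H460 library 1, and 0 and 0 with no filter. Over all genes these fits called 4.07% higher and 1.09% lower without H2023 library 0, 4.15% and 1.02% without H2023 library 1, 3.92% and 4.35% without H460 library 0, 3.27% and 3.62% without H460 library 1, and none with no filter. Of the called genes, CRB3, DSP and CLDN4 met the filter through 1 line alone.

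Mesenchymal genes outside the members were divided between the lines. Of 28 tested from a list of 35, 10 were higher and 9 lower in H2023 under control siRNA, with a median of 0.35, where 24.2% and 24.6% of all genes were called. The counts were 8 and 4 without H2023 control library 0 (median 0.80) and 5 and 4 without library 1 (median 0.14). Here too the filter was met through 1 line alone by 4 of the higher genes (DAB2, MMP2, TNC and TWIST1) and 4 of the lower ones (CDH11, COL3A1, POSTN and ZEB2). With no filter 34 genes had a median of 0.27, and 6 were called higher and 6 lower. Higher were the matrix gene TNC (3.76), the receptor kinase AXL (2.74), the matrix protease MMP2 (2.48) and the microfibril gene FBN1 (2.35). Lower were CDH11, a mesenchymal cadherin (-9.26), ZEB2, the paralogue of ZEB1 (-4.38), and the collagen genes COL5A2 (-3.15) and COL3A1 (-1.79). With NRF2 siRNA 6 were higher, led by TNC (4.77), TPM2 (2.95), AXL (2.73) and VCAN (1.98), and 7 lower, led by CDH11 (-10.11), ZEB2 (-4.26), COL5A2 (-3.30) and ACTA2 (-2.59), of 28 tested, with a median of 0.06, where 10.7% and 8.66% of all genes were called. The counts were 6 and 1 without H2023 library 0, 4 and 1 without H2023 library 1, 1 and 5 without H460 library 0 as without H460 library 1, and 0 and 0 with no filter. With the siRNA as a block they were 10 and 9, where 17.9% and 15.1% of all genes were called. The filter was met through 1 line alone by THY1, TNC and VCAN among the higher genes and CDH11, COL3A1 and ZEB2 among the lower ones.

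**Figure D4:**
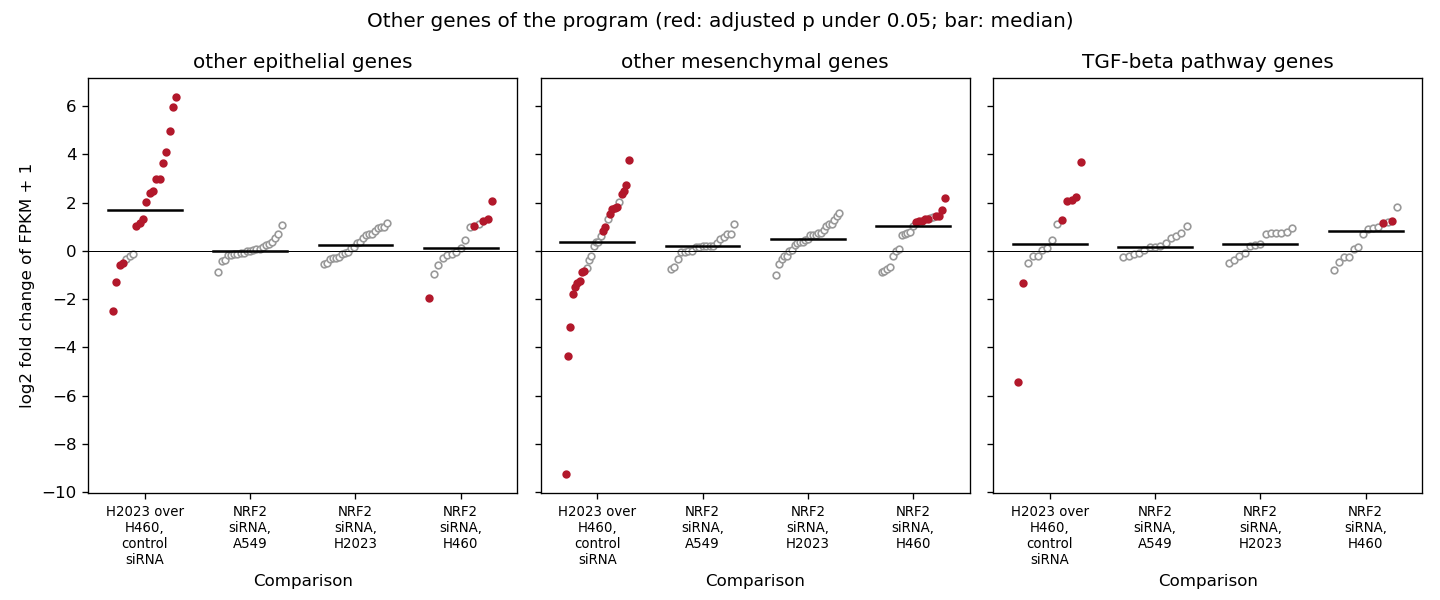
Log2 fold change of FPKM + 1 for the tested genes of 3 lists (other epithelial, other mesenchymal and TGF-beta pathway genes) between H2023 and H460 under control siRNA and with NRF2 siRNA in each line. Each point is a gene, sorted within its column, red points passed the limma test and the bar is the median; no red point appears for knockdown in A549 or H2023.

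All 14 TGF-beta pathway genes were tested between the lines. Under control siRNA the receptor genes TGFBR2 (3.68) and TGFBR3 (2.24), the inhibitor genes SKIL (2.10) and SMAD7 (2.06) and 1 more were higher in H2023, whereas the co-receptor gene ENG (-5.44) and the ligand gene TGFB2 (-1.32) were lower. ENG was under 1 FPKM in all H2023 libraries, and met the filter through H460 alone. The list median was 0.28, and 5 were called higher and 2 lower, where 24.2% and 24.6% of all genes were. Without H2023 control library 0, as without library 1, 3 were called higher and 1 lower. With NRF2 siRNA TGFBR3 (2.63), SMAD7 (1.84) and SKIL (1.28) were higher and ENG (-5.07) was lower, where 10.7% and 8.66% of all genes were called. None was called higher without either one of the H2023 libraries or without H460 library 0, and 1 was without H460 library 1, while 1 was called lower in each of these fits. With no filter none was called in either direction.

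On knockdown, these lists held calls in H460, where 7.12% of all genes were called higher and 6.86% lower. They held no call in A549, where the shares were 0.122% and 0.554%, or in H2023, where they were 0.327% and 0.583%. In A549 none was called in any alternative. In H2023, without the siRNA #30 library, 4 other epithelial genes were called higher, 3 other mesenchymal genes higher and 2 lower, and 1 TGF-beta pathway gene in each direction, where 3.99% of all genes were called higher and 3.40% lower. Without the siRNA #28 library 3 mesenchymal genes and 1 TGF-beta pathway gene were called higher, where the shares were 3.47% and 4.16%. Over all genes tested, 1844 had an unadjusted limma p under 0.05 in A549 and 2378 in H2023. In H460, 4 of 15 other epithelial genes rose, JUP (plakoglobin, 2.07), the polarity gene LLGL2 (1.30), PPL (periplakin, 1.22) and the protease inhibitor gene SPINT1 (1.01), and the adaptor gene AP1M2 fell (-1.94), with a median of 0.12. PPL and SPINT1 were under 1 FPKM in both control libraries and met the filter through the NRF2 siRNA libraries alone, as did COL5A1 among the mesenchymal genes that rose. Of 23 other mesenchymal genes 9 rose and none fell, led by S100A4 (2.19), COL6A2 (1.68), ACTA2 (1.46) and AXL (1.44), with a median of 1.03 against -0.01 over all genes tested. SMAD3 (1.24) and TGFB3 (1.14) rose among the 14 TGF-beta pathway genes, with a median of 0.80. These list calls in H460 were lost without control library 0 or without control library 1, as were almost all calls over all genes. The list medians were then -0.05 and 0.29, 0.79 and 1.05, and 0.70 and 0.83, in the order of the lists. With no filter on low values no gene of the lists was called, where 0% of all genes were called in either direction. The medians were then 0.28, 0.54 and 0.80. Other fits called more genes, in the lists and over all genes. Without the siRNA #28 library 14 mesenchymal genes were called higher and 1 lower, and 4 TGF-beta pathway genes higher, where 9.91% of all genes were called higher and 11% lower. With mitochondrial transcripts left out, 6, 10 and 5 genes of the lists were called higher and the medians were 0.64, 1.21 and 1.01, where 10.2% and 4.16% of all genes were called. In one fit of all 12 libraries 5, 12 and 7 were called higher and 2, 3 and 0 lower, where 17.3% and 16.8% of all genes were called. Of the marker lists of other cell types, 1 of 4 immune genes and 1 of 5 neuroendocrine genes also rose in H460 on knockdown, CD14 (2.20 ± 0.42, limma adjusted p = 0.0288) and SYP (1.84 ± 0.27, limma adjusted p = 0.0189), both named after their values were seen. SYP read 1.23 and 0.914 FPKM with control siRNA and 5.77 and 7.08 with NRF2 siRNA. CHGA, of the same neuroendocrine list, went the other way without being called. It read 14.5 and 21.1 FPKM with control siRNA and 7.77 and 2.88 with NRF2 siRNA. NCAM1 read 4.02 and 2.78 against 5.41 and 9.61 FPKM and was not called. The fibroblast genes summed to 0.994 and 2.51 against 2.13 and 5.81 FPKM, overlapping, with none of 5 called and FAP at 0 in all 4 libraries. The part of other cell types in these list results was not tested.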

How the data were processed

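For each library the authors deposited its FPKM values in a file. Per the study's methods, reads were aligned to hg19 with TopHat and abundance was estimated with Cufflinks, whereas the submitters' processing notes name STAR 2.5.3a, Cuffnorm, HTSeq, DESeq2 and the builds hg19 and GRCh37.p13, and which made these values was not settled. FPKM depend on the other transcripts of a library. The authors also deposited a DESeq2 table per line, of which only the mean normalised count, a signal pooled over the line, was used. Its log2 fold changes, standard errors, test scores and p-values were not used.

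Identifiers were matched without version to GENCODE lifted to GRCh37 (96.1% matched), and 12710 FPKM values under 1e-06 were set to 0. The planned count test was replaced where counts were absent: limma 3.58.1 in R 4.3.3 was run on log2(FPKM + 1), with the prior variance following mean expression, on genes at 1 FPKM or above in at least 2 libraries of the comparison (of each line, for the difference of effects). A 2-group fit had 2 residual degrees of freedom and the difference of effects 4. The scripts were tested on simulated data. Files were read in pandas 2.3.3 and numpy 2.4.6 (Python 3.11.15), and figures drawn in matplotlib 3.10.9.

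The members, lists and tests were chosen with earlier results of these data known. All 10 members were named in every comparison, and from the lists of other epithelial, other mesenchymal and TGF-beta pathway genes up to 4 called genes per direction with the largest fold change, besides NFE2L2, NQO1 and GCLM. PECAM1 of the endothelial markers had no matched identifier. Replicate numbers pair NRF2 siRNA libraries across lines by siRNA (correlation of deviations between same-numbered libraries 0.37 for H2023 and H460).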

Additional observations from a re-analysis of the deposited data

Results flagged for a closer look

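The CDH2 values with NRF2 siRNA lay above both controls in both H460 libraries and below both controls in both A549 libraries, and the difference between the lines was not tested. The H460 mean with NRF2 siRNA was 2.40 times the control siRNA mean, but its log2 difference of 0.75 (95% interval -0.13 to 1.63, limma adjusted p = 0.206) did not pass the test. The A549 mean was 0.783 times the control mean, and CDH2 was too low there to be tested. All A549 values were under 1 FPKM, and the A549 libraries were made by another protocol.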

How the results depend on the processing

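Limits were set by 2 libraries per group, unknown depth and siRNAs that differ between NRF2 siRNA libraries. Over 556 alternative values of 48 member differences, 467 kept direction and side of the threshold, 29 kept direction but lost the call, 18 gained it and 42 changed sign. None of the 14 differences past the threshold changed sign. Causes were not tested unless stated.

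With no filter on low values, which tests more genes, 5 members were called between the lines under control siRNA and 0 under NRF2 siRNA, where 0 genes were called. Genes called for knockdown were then 0 in A549, 0 in H2023 (0 members) and 0 in H460, and 219 for the difference of effects. With a pseudocount of 0.1 the difference of effects called 19 genes and EPCAM in it was 0.0664. With no trend of the prior variance, knockdown in H2023 called 79 genes and the difference of effects 1. One fit of all 12 libraries called 5824 genes and 8 members between the lines under NRF2 siRNA, 748 genes and 2 members for knockdown in H2023, 4585 genes and 3 members in H460, and 419 genes for the difference of effects.

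With a replicate block, 4769 genes were called between the lines under NRF2 siRNA. Within lines the sources do not say whether same-numbered libraries share more than the number (correlations of deviations -0.03 in A549, 0.31 in H2023 and 0.16 in H460, and 0.03 between the control libraries of H2023 and H460). There the block called 711 genes and 3 members in H2023 (KRT8 at adjusted p = 0.0119 and KRT18 at 0.0166 by limma, besides CDH1), 3177 genes and 2 members in H460 (KRT8 at 0.0312 and SNAI2 at 0.0252) and 0 genes for the difference of effects.

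With mitochondrial transcripts left out, knockdown in H2023 called 2 members, the difference of effects called 1 gene, VIM in H460 was 0.0895, and the differences of effects were 0.11 for KRT8 and 0.13 for VIM. Under median-of-ratios scaling these were 0.0400 and 0.0593.

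Leaving out 1 library at a time left an arm with a single library, which is taken to vary like the other group. Between the lines under control siRNA this gave 1981 to 5870 genes and 5 to 8 members (1981 genes without H2023 library 0 and 2031 without library 1). Under NRF2 siRNA it gave 747 genes without either H2023 library, 995 without H460 library 1 and 1196 without H460 library 0, with 1 to 3 members. Knockdown in A549 called 46 genes without control library 0, 55 without control library 1 and up to 120 without an NRF2 siRNA library. In H2023 it called 0 genes and 0 members without either control library, 1039 genes without siRNA #30 and 1073 without siRNA #28, each with 1 member. In H460 it called 1 gene and 0 members without either control library, up to 2810 genes without an NRF2 siRNA library, 3 members (KRT8, CDH2 and FN1) without siRNA #28 and 1, SNAI2, without siRNA #30. The difference of effects called 0 to 4 genes, the latter without H460 siRNA #28.

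Values not past the threshold changed sign with 1 library left out. ZEB1 between the lines under control siRNA ranged from -0.59 to 0.0152. For knockdown in A549, CDH1 ranged from -0.0467 to 0.37, EPCAM from -0.45 to 0.38, KRT8 from -0.19 to 0.43, KRT18 from -0.0363 to 0.48 and VIM from -0.36 to 0.22. In H2023 VIM ranged from -0.99 to 0.74 and ZEB1 from -0.53 to 0.0765, and in H460 EPCAM from -0.18 to 0.59, VIM from -0.60 to 0.34 and FN1 from -0.27 to 1.23. For the difference of effects, EPCAM ranged from -0.65 to 0.15, KRT8 from -0.42 to 0.38, CDH2 from -0.36 to 0.56, VIM from -0.87 to 0.87 and FN1 from -0.69 to 0.80.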
